A study of Mus musculus with 6 samples.

Results

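The genes described here are 48 genes of DNA replication and mitosis, 24 that act at the start of S phase and during DNA synthesis (Mcm2 to Cdt1, called replication genes below) and 24 that act in G2 and M phase (Ccna2 to Foxm1, called G2/M genes). They were chosen by name, though with earlier results of these data known, from the 23462 genes that the arrays measured with at least 1 probe matched to a RefSeq gene. Of the 48, 46 could be tested, 23 in each class, among 17062 genes tested in all. The RNA came from BV2 cells, an immortalized mouse microglial line, all treated with LPS (lipopolysaccharide, a bacterial membrane component that triggers inflammation). The control group, labelled as without PGC-1α overexpression, had 3 arrays, and the group labelled PGC-1α overexpression had 3 arrays, with 1 RNA sample on each. In the cell culture methods, the PGC-1α sequence or a negative control was carried into BV2 cells by a lentivirus, the overexpressing cells were selected with 2 µg/ml puromycin after 72 h, and LPS was given at 500 ng/ml for 6 h. The arrays are not mentioned there, and the labels give neither the dose nor the time. Nothing says whether the 3 samples of a group were separate cultures, so p-values measure the spread between these samples, which may be technical.

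The arrays lay on 2 slides, with 2 arrays of each group on slide 1 and 1 of each on slide 2. Between 41122 and 45165 of the 59305 spots other than controls were well above background, and the 75th percentile of the intensity was 1617 to 1893 in the controls and 856 to 1268 with overexpression, so that every overexpression array was dimmer. Signals are given as log2 intensity minus the 75th percentile of the same array, and changes as log2 fold change, overexpression minus control. Under this scaling the median of all genes rose by 0.23, and after quantile normalization by 0.03, so the calls are given under both, and a value with no scaling named is under the 75th percentile. Ppargc1a, which encodes PGC-1α, was read by 2 probes close to background with changes of 1.14 and 0.26, neither of which could be tested, so it gives no firm check of the labels. Of 14 microglia markers 12 were tested. Under the 75th percentile scaling 7 were higher and 1 lower, where 36.9% of all genes were higher and 19.6% lower. After quantile normalization, with 21.7% of all genes higher and 20.9% lower, 1 of these markers was higher and 1 lower. Their mean signal ran from 1.73 to 1.77 in the controls and from 1.86 to 2.00 with overexpression. Cx3cr1 and P2ry12 could not be tested, and Tmem119 fell by 2.68. The 5 fibroblast markers were all measured above background, with Col1a1, Col1a2, Dcn and Thy1 higher and Pdgfra lower, and a mean signal of 0.12 to 0.27 against 0.62 to 0.78; after quantile normalization Col1a1 did not pass. Astrocyte markers were dim, with a mean signal of -4.78 to -4.34 against -4.12 to -3.54, and 2 of the 4 tested, Aqp4 and Aldh1l1, were higher under both scalings. Neuron markers had a mean of -1.29 to -1.09 against -1.03 to -0.87, with 2 of 4 higher and 1 lower (1 and 1 after quantile normalization). For oligodendrocyte markers the groups overlapped, and 1 of 5 was higher under both scalings. What part these markers have in the results below was not tested.

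Cells copy their DNA once per division. In G1, Cdc6 and Cdt1 load the ring-shaped helicase made of Mcm2 to Mcm7 onto origins, and at the start of S phase Mcm10 and the GINS complex help to turn it on, so that polymerase α, the sliding clamp Pcna and its loader RFC can begin synthesis. Many of these genes are switched on by E2F transcription factors, while genes of G2 and M phase are often controlled through an element called CHR, next to CCAAT boxes, and through Foxm1. In bulk RNA, fewer cells in a phase of the cycle and less RNA per cell cannot be told apart.

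The promoters of the 2 classes carried different short motifs. RefSeq windows from 250 bases before to 50 after the annotated start (mouse assembly GRCm38.p6) were given for 19 replication genes and 18 G2/M genes. Windows were lacking for Ccne2, Gins1, Gins2, Mcm4 and Rfc2 in the first class and for Aurkb, Ccna2, Cdc25c, Foxm1, Kif20a and Tpx2 in the second. An E2F core, searched on both strands in 4 forms (the first is TTCGCGC while the next is TTGGCGC and the others are TTCCCGC together with TTGCCGC), was found in 13 of 19 replication genes (68.4%), in 3 of 18 G2/M genes (16.7%) and in 10.9% of all 27025 genes with a window. A CHR (TTTGAA) was found in 1 replication gene (5.26%), in 12 G2/M genes (66.7%) and in 20.2% of all genes. All 12 of those G2/M genes also had a CCAAT box (CCAAT), which was found in 68.4% of replication genes, 83.3% of G2/M genes and 41.1% of all genes. The half-site of the receptor ERRα, a known partner of PGC-1α (AAGGTCA), was found in no window of either class and in 5.38% of all genes. On opposite strands the letters of an E2F core can overlap each other. The windows below belong to the genes that were lower under both scalings and held an E2F core or a CHR, which are Rrm2 (chr12:24708004-24708303, plus strand), Rfc4 (chr16:23127681-23127980, minus strand) and Kif11 (chr19:37376132-37376431, plus strand). Mcm6 (chr1:128359656-128359955, minus strand), chosen after its values were seen, stands beside them as the gene with the most E2F cores, 5, and no fall under the 75th percentile scaling. They are written 5′ to 3′ along the gene's strand, and the capitals mark E2F cores, the CHR and CCAAT boxes on either strand.
Rrm2: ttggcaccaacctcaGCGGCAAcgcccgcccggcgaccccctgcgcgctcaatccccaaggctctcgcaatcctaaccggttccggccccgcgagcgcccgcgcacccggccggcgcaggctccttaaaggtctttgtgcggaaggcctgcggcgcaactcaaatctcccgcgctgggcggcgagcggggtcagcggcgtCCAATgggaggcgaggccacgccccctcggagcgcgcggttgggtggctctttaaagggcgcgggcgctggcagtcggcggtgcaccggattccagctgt
Rfc4: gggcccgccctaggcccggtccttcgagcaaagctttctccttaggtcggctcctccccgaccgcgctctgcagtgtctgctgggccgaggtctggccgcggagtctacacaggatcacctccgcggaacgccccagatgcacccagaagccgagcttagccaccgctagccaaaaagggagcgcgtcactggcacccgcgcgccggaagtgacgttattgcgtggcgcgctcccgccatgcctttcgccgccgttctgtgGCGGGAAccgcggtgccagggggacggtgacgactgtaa
Kif11: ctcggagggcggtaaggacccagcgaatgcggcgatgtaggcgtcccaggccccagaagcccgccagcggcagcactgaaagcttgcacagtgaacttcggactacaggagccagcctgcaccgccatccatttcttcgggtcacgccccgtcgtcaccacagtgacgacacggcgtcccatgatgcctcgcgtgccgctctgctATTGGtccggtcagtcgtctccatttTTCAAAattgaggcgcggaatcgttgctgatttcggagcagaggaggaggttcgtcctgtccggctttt
Mcm6: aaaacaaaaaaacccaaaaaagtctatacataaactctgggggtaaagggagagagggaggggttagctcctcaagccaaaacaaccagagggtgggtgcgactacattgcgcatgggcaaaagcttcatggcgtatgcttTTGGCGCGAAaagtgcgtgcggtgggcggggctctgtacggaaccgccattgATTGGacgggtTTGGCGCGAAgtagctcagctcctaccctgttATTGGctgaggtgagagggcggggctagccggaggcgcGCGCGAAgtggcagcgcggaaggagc
In Kif11 the CHR began at -19 and the CCAAT box at -45, counted in bases from the annotated start, while the E2F core of Rrm2 began at -235 and that of Rfc4 at 11. Among the replication genes tested, the 13 with an E2F core had log2 fold changes from -1.09 to 0.35 (median -0.06), with 2 lower under both scalings. The 5 without one ran from -1.48 to 0.22 (median -0.27), also with 2 lower under both. A match is a description of these letters and not evidence of binding.

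**Figure D1:**
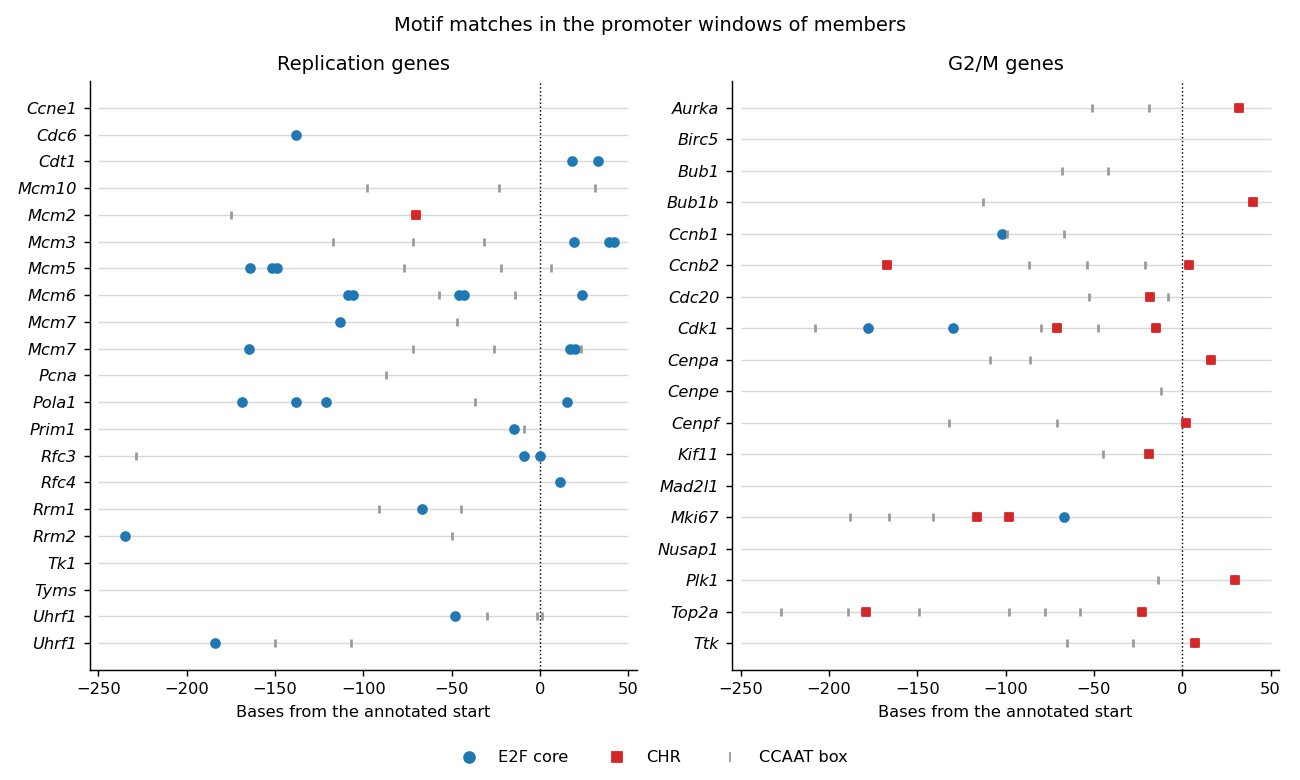
Positions of motif matches in the promoter windows of the members, in bases from the annotated start (dotted line); each row is 1 window, and Mcm7 and Uhrf1 have several. E2F cores (circles) lie mostly on replication genes, in 13 of 19, and CHR matches (squares) on G2/M genes, in 12 of 18, with CCAAT boxes (ticks) in both.

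Most replication genes did not pass, and most of those that did were lower. Under the 75th percentile scaling, 5 of the 23 tested were lower (Mcm10, Rrm2, Gins1, Rfc4 and Tk1), 1 was higher (Mcm6) and 17 did not pass an adjusted p of 0.05 in limma, where 19.6% of all genes were lower and 36.9% higher. The share lower, 21.7%, was near that of all genes, and the share higher was 4.35%. After quantile normalization 9 were lower (39.1%) and 0 higher, beside 20.9% and 21.7% of all genes. Under the 75th percentile scaling 10631 of the 17062 genes had an unadjusted p under 0.05 in limma, in either direction. Of the 23 replication genes 9 had such a p, 7 of them lower and 2 higher. The shares of all genes by direction at that cut-off were not worked out. The 5 lower genes were lower under both scalings, and 0 were higher under both. Of all 17062 genes, 3185 were lower and 3692 higher under both. The median log2 fold change of the class was -0.06, or -0.29 relative to the median of all genes (-0.39 after quantile normalization), and 19 of the 23 lay below that median. The 2 groups did not overlap in 9 genes that were lower and 4 that were higher, against 22.8% and 42.7% of all genes. Of the 5 lower genes, Mcm10, Rrm2 and Gins1 passed in every fit without 1 array, while Rfc4 and Tk1 passed only without overexpression replicate 2. Ccne2 passed as lower without control replicate 1 (adjusted p = 0.0345) or overexpression replicate 3 (adjusted p = 0.0143). In these fits no gene was higher.

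The G2/M genes did not move in 1 direction. Under the 75th percentile scaling 5 of 23 were higher (Bub1, Cdc20, Cenpa, Ccnb2 and Tpx2), 2 were lower (Foxm1 and Kif11) and 16 did not pass. These are 21.7% and 8.7% of the class, where 36.9% of all genes were higher and 19.6% lower. After quantile normalization 0 were higher (1 at an unadjusted p under 0.05 in limma) and 4 were lower. The median was 0.15, or -0.08 relative to all genes (-0.22 after quantile normalization), and 13 of 23 lay below the median of all genes. Groups did not overlap in 8 genes that were higher (34.8%) and 3 that were lower (13%), against 42.7% and 22.8% of all genes. The count of higher genes was 2 without control replicate 1, control replicate 3 or overexpression replicate 1 and 3 without control replicate 2 or overexpression replicate 3. The count of lower genes was 0 without control replicate 3 and 1 without control replicate 2 or overexpression replicate 1 or 2. Across the fits without 1 array, 4708 to 6759 of all genes were higher and 2690 to 3233 lower. Without control replicate 1 the relative median was -0.21, and without overexpression replicate 3 it was -0.13. Whether the 2 classes differed from each other was not tested.

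**Figure D2:**
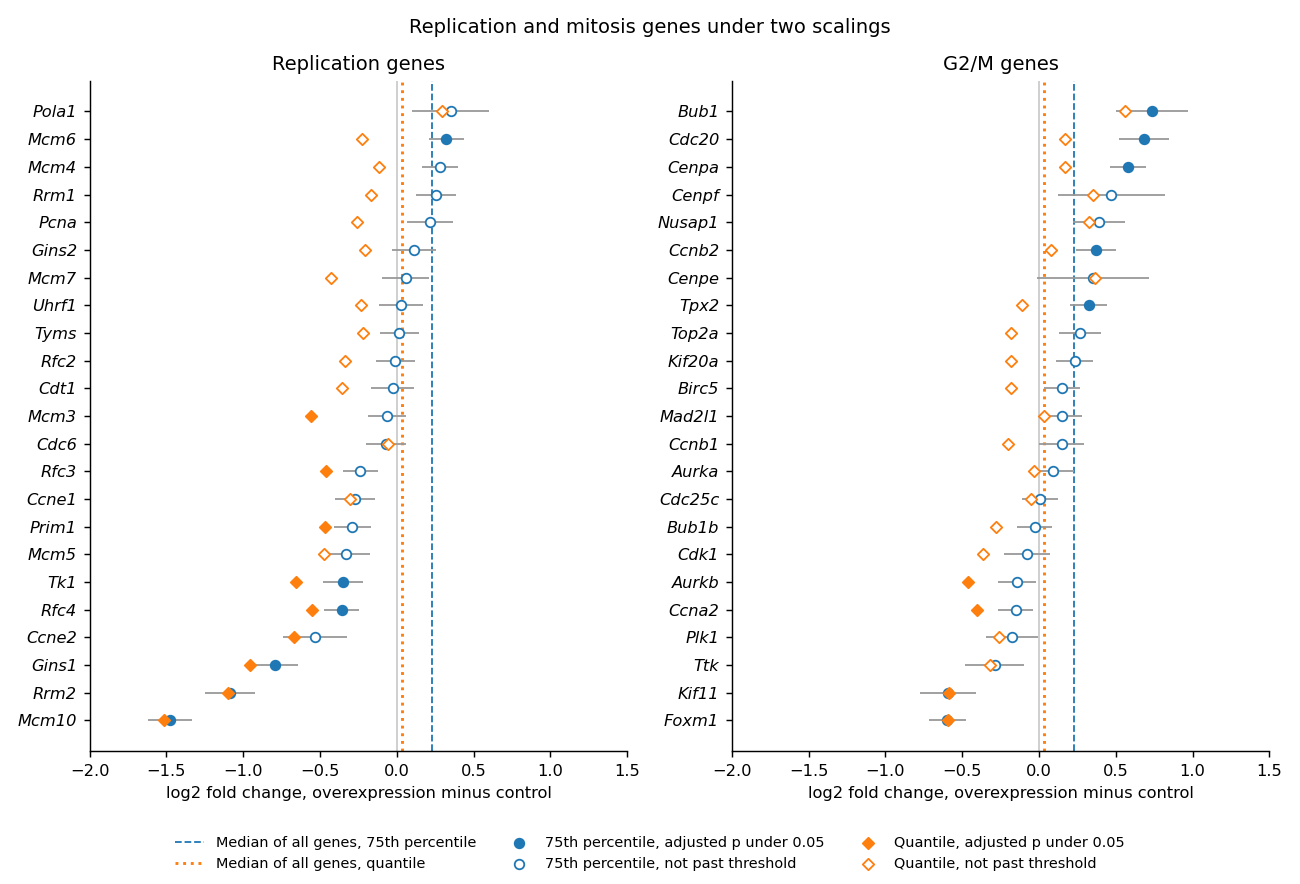
Log2 fold change (overexpression minus control) of the 46 tested members under the 75th percentile scaling (circles, with standard error) and after quantile normalization (diamonds), with filled symbols past an adjusted p of 0.05 and vertical lines at the medians of all genes, 0.23 and 0.03. Mcm10, Rrm2 and Gins1 stand apart on the left in both, while the higher G2/M genes lose their filled symbols after quantile normalization.

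Among the genes that load and start the helicase, Mcm10, which joins the helicase when it is turned on, had the lowest log2 fold change of all members. Its signal was 1.23, 1.05 and 1.02 in the controls and -0.42, -0.54 and -0.18 with overexpression. The groups lay far apart, at 1.10 ± 0.11 (SD, n = 3) and -0.38 ± 0.19 (SD, n = 3). The signal was 2.78-fold lower, with a log2 difference of -1.48 (standard error 0.14, adjusted p = 0.000222). It was -1.52 after quantile normalization (adjusted p = 0.000234), -1.62 on slide 1 and -1.20 on slide 2, and it passed without any 1 array. Gins1, a subunit of the GINS complex that the active helicase needs, had signals of 1.78, 2.05 and 2.07 against 0.98, 1.18 and 1.36. Every overexpression array was below every control array, with a change of -0.79 (standard error 0.15, adjusted p = 0.00362; -0.96 and 0.0019 after quantile normalization). Its second probe, for another transcript, changed by -0.31 without passing (adjusted p = 0.108 in the fit over all tested probes). Gins2, another subunit of the same complex, was at 0.11 (adjusted p = 0.525) and -0.21 after quantile normalization.

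The subunits of the helicase itself gave 1 call under each scaling. Mcm6 rose by 0.32 (adjusted p = 0.0392) under the 75th percentile scaling, from 3.97, 3.97 and 3.99 to 4.33, 4.34 and 4.23, but was at -0.23 after quantile normalization (adjusted p = 0.17), and it did not pass once any 1 array was left out (0.056 to 0.12). Mcm4 was at 0.28, Mcm7 at 0.06, Mcm3 at -0.06 and Mcm5 at -0.33, none past the threshold. After quantile normalization all 5 tested subunits were below 0. Mcm3 passed, at -0.56 (adjusted p = 0.0093), while Mcm5 at -0.48 (adjusted p = 0.0545), Mcm7 at -0.43 (0.0503) and Mcm4 at -0.12 (0.535) did not. Other Mcm3 probes were at -0.21 and -0.24 after quantile normalization and did not pass (adjusted p = 0.345 and 0.142 in the fit over probes). The difference of the subunits from Mcm10 was not tested. Mcm2 could not be tested because its only probe was marked as an outlier on 2 control arrays. With such spots kept its signals were 2.66, 2.23 and 2.51 against 2.61, 2.67 and 2.67, which overlap, and the change was 0.19 (adjusted p = 0.292). The loaders Cdc6 and Cdt1 were at -0.07 and -0.03 (adjusted p = 0.665 and 0.884; -0.05 and -0.36 after quantile normalization, neither past the threshold). A second Cdc6 probe changed by -0.50 (adjusted p = 0.0357 in the fit over probes), while the brighter one that stood for the gene did not pass.

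Of the genes that begin and carry out synthesis, Pola1 and Prim1 encode the catalytic subunit of polymerase α and the small subunit of its primase. Pola1 was at 0.35 (adjusted p = 0.261; 0.29 after quantile normalization), with control signals of 0.06, 0.97 and 0.85, and Prim1 at -0.29 (adjusted p = 0.0693), passing as lower after quantile normalization (-0.47, adjusted p = 0.0167). Pcna, the clamp that holds polymerases on DNA, was at 3.87 and 3.79 on control arrays 2 and 3 and at 4.03, 4.20 and 3.91 with overexpression. The groups did not overlap, but the change of 0.22 did not pass (adjusted p = 0.248) and became -0.26 after quantile normalization. Control array 1 was left out for an outlier spot, and with it kept the change was 0.22. Among the clamp loader subunits, Rfc4 fell from 1.92, 1.91 and 1.98 to 1.67, 1.55 and 1.52. The control arrays lay close together and above all the others, with a change of -0.36 (standard error 0.12, adjusted p = 0.029; -0.55 and 0.00693 after quantile normalization). The call was lost in 5 of 6 fits without 1 array (adjusted p up to 0.0882 without control replicate 3), and a second probe was at -0.25 (adjusted p = 0.117 in the fit over probes). Rfc3 was at -0.24 (adjusted p = 0.109) and lower after quantile normalization (-0.46, adjusted p = 0.0128). Its second probe passed as lower, at -0.51 (adjusted p = 0.0226 in the fit over probes), and so did the mean of both (-0.39, adjusted p = 0.017). Rfc2 was at -0.01, and at -0.34 after quantile normalization (adjusted p = 0.0662).

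The genes of nucleotide supply differed among themselves. Rrm2, the small subunit of ribonucleotide reductase, which makes the building blocks of DNA and whose amount changes over the cell cycle, had signals of 0.64, 0.81 and 0.83 in the controls and -0.31, -0.61 and -0.05 with overexpression. The groups were separate by more than the spread within either, at 0.76 ± 0.11 (SD, n = 3) and -0.32 ± 0.28 (SD, n = 3). The change was -1.09 (standard error 0.16, adjusted p = 0.00151), 2.12-fold lower, and -1.10 after quantile normalization (adjusted p = 0.00127), and it passed without any 1 array. Rrm1, the large subunit of the same enzyme, was at 0.25 without passing (adjusted p = 0.136) and at -0.17 after quantile normalization. Tk1, the thymidine kinase of the salvage route, fell from 2.68, 2.60 and 2.52 to 2.26, 2.39 and 2.10. No overexpression array reached the control arrays, and the change was -0.35 (standard error 0.13, adjusted p = 0.0472; -0.66 and 0.00582 after quantile normalization), lost in 5 of 6 fits without 1 array (adjusted p up to 0.146 without overexpression replicate 3). Its second probe was at -0.57 (adjusted p = 0.0126 in the fit over probes). Tyms, which makes thymidylate, was at 0.02, and Uhrf1, which recognizes half-methylated DNA behind the fork, at 0.03. After quantile normalization they were at -0.22 and -0.23, also without passing. Ccne1, the cyclin that drives entry into S phase with Cdk2, was at 0.81, 0.67 and 0.56 against 0.44, 0.27 and 0.51. Its groups did not overlap, and the change of -0.27 did not pass under either scaling (adjusted p = 0.107, and 0.12 after quantile normalization). Ccne2, the dimmest member, was at -0.53 (adjusted p = 0.0555) and passed as lower after quantile normalization (-0.67, adjusted p = 0.0323).

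**Figure D3:**
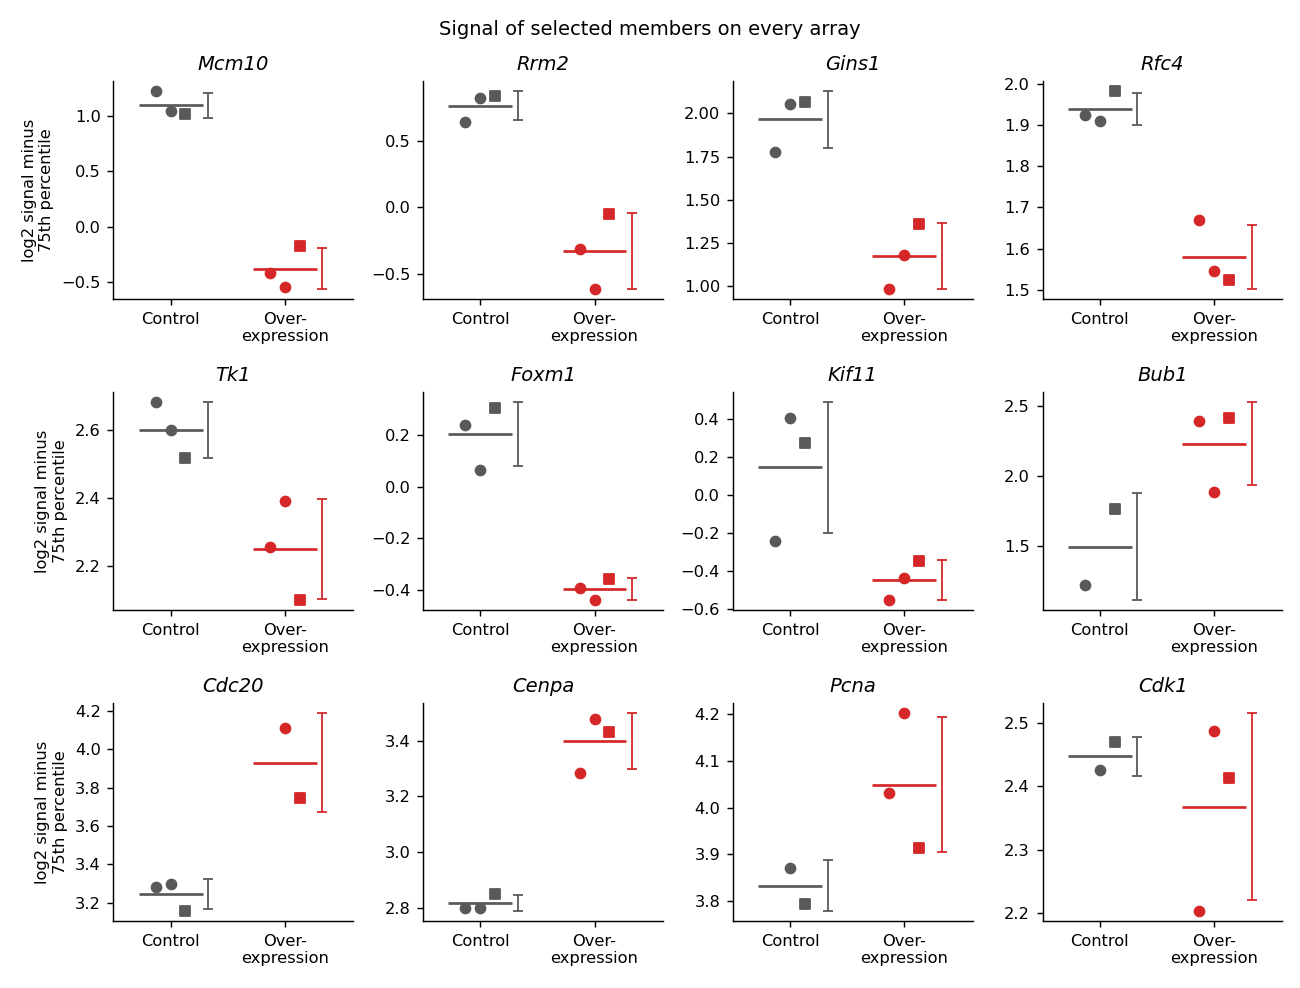
Signal of 12 members on every array (log2 intensity minus the array's 75th percentile), with circles for slide 1, squares for slide 2, lines at group means and bars of 1 SD; spots marked as outliers are missing, and each panel has its own axis. Mcm10, Rrm2, Gins1, Rfc4, Tk1, Foxm1 and Kif11 are lower on all overexpression arrays, Bub1, Cdc20, Cenpa and Pcna are higher on all of them, and Cdk1 overlaps.

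In the G2/M class, the cyclins and the kinase that drives mitosis gave no shared change. Cdk1, the mitotic kinase, was at 2.43 and 2.47 on control arrays 2 and 3 and at 2.20, 2.49 and 2.41 with overexpression. These overlap, and the change was -0.08 (adjusted p = 0.668; -0.37 and 0.0816 after quantile normalization). Ccnb1, its main cyclin partner, was at 2.86 and 2.74 on control arrays 1 and 3 and at 2.96, 3.06 and 2.82 with overexpression, overlapping, with 0.15 (adjusted p = 0.413; -0.20 after quantile normalization). The 2 other Ccnb1 probes were at -0.89 (adjusted p = 0.0063 in the fit over probes) and -0.16, so the gene has no single direction here. Ccnb2 rose by 0.37 (standard error 0.13, adjusted p = 0.0381), from 2.26, 2.34 and 2.10 to 2.67, 2.66 and 2.48, but was at 0.08 after quantile normalization (adjusted p = 0.7) and lost its call in 5 of 6 fits without 1 array (adjusted p up to 0.13 without control replicate 3). Ccna2, which acts from S phase into G2, was at -0.15 (adjusted p = 0.272) and lower after quantile normalization (-0.40, adjusted p = 0.0306). Its second probe went the other way, at 0.15 (adjusted p = 0.394 in the fit over probes), and at 0.01 (0.962) after quantile normalization. The mean of both was -0.001 (adjusted p = 0.993), so the call rests on the brighter probe. The phosphatase Cdc25c, which activates Cdk1, was at 0.01 (-0.05 after quantile normalization).

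Among the mitotic kinases and the spindle checkpoint, Bub1, a checkpoint kinase at the kinetochore, was at 1.22 and 1.76 on control arrays 1 and 3 and at 2.39, 1.89 and 2.41 with overexpression. All 3 overexpression arrays were higher, with a change of 0.73 (standard error 0.23, adjusted p = 0.0319). The spot on control array 2 was left out as an outlier, and with it kept the change was 0.79. After quantile normalization Bub1 was at 0.56 (adjusted p = 0.0861), and it also lost its call without overexpression replicate 1 (adjusted p = 0.095) or 3 (0.072). Cdc20, the activator of the ubiquitin ligase that ends metaphase, rose from 3.28, 3.30 and 3.15 to 4.11 and 3.75 on overexpression arrays 2 and 3. This was a change of 0.68 (standard error 0.16, adjusted p = 0.0109) that passed without any 1 array but was 0.17 after quantile normalization (adjusted p = 0.437). Its second probe was at 0.75 (adjusted p = 0.00635 in the fit over probes). Plk1 (-0.17), Aurka (0.09), Ttk (-0.29), Mad2l1 (0.15) and Bub1b (-0.03) passed under neither scaling, and were at -0.26, -0.03, -0.32, 0.03 and -0.28 in the same order after quantile normalization. Aurkb, the kinase of the chromosomal passenger complex, was at -0.14 (adjusted p = 0.345) and lower after quantile normalization (-0.46, adjusted p = 0.021).

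Of the proteins of chromosomes and kinetochores, Cenpa, the histone variant that marks centromeres, rose from 2.80, 2.80 and 2.85 to 3.28, 3.48 and 3.43. The arrays of each group lay close together, and the change was 0.58 (standard error 0.12, adjusted p = 0.0047). It passed in all 6 fits without 1 array but was 0.17 after quantile normalization (adjusted p = 0.287). Cenpf (0.47) and Cenpe (0.35) had wide control groups, with control array 1 the lowest, at 0.19 against 1.30 and 1.64 for Cenpf and at -1.61 against -0.30 and -0.44 for Cenpe, and neither passed under either scaling (0.35 and 0.36 after quantile normalization). Top2a, which untangles sister chromatids, was at 3.09, 3.39 and 3.32 against 3.57, 3.40 and 3.63. The groups were separate by a small margin, and the change of 0.27 did not pass (adjusted p = 0.127; -0.19 after quantile normalization). Its second probe passed as higher, at 0.46 (adjusted p = 0.0241 in the fit over probes; 0.16 and 0.461 after quantile normalization), and so did the mean of both (0.37, adjusted p = 0.0463). Mki67, the proliferation marker Ki-67, could not be tested, since its only probe was an outlier on control array 1 and overexpression array 1. With outlier spots kept it was at 1.39, 2.48 and 2.46 against 2.19, 1.23 and 2.22, which overlap widely, with a change of -0.23 (adjusted p = 0.599). Birc5, a passenger complex subunit, was at 0.15 (adjusted p = 0.297; -0.18 after quantile normalization).

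Foxm1, the transcription factor that switches on many G2/M genes, was lower. Its signals were 0.24, 0.06 and 0.30 in the controls and -0.39, -0.44 and -0.36 with overexpression. The groups did not overlap, at 0.20 ± 0.12 (SD, n = 3) and -0.40 ± 0.04 (SD, n = 3), with a change of -0.60 (standard error 0.12, adjusted p = 0.00483; -0.59 and 0.00551 after quantile normalization), 1.51-fold lower. It lost its call without control replicate 3 (-0.47, adjusted p = 0.0693), and its second probe was at -0.30 (adjusted p = 0.21 in the fit over probes). Kif11, the motor that pushes spindle poles apart, was at -0.24, 0.41 and 0.28 against -0.55, -0.44 and -0.35. Control array 1 was nearest to the overexpression arrays but above them, and the change was -0.59 (standard error 0.18, adjusted p = 0.0244; -0.58 and 0.0286 after quantile normalization). It did not pass without control replicate 2 or 3 or overexpression replicate 1 or 2 (adjusted p up to 0.087, without control replicate 2). Of the other spindle genes, Tpx2, which helps microtubules form around chromosomes, rose by 0.32 (adjusted p = 0.047), from 3.01, 3.21 and 3.12 to 3.45, 3.37 and 3.48, but was at -0.11 after quantile normalization (adjusted p = 0.539) and lost its call in 5 of 6 fits without 1 array (adjusted p up to 0.144 without control replicate 1). Nusap1 (0.39, adjusted p = 0.0815) and Kif20a (0.23, adjusted p = 0.13) passed under neither scaling, and were at 0.32 and -0.18 after quantile normalization.

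The brightness of a probe bore on how these counts read. Of the 2767 genes with a mean signal above 2, 57.1% were higher and 1.37% lower under the 75th percentile scaling, with a median of 0.43, whereas 5.2% and 6.61% were so after quantile normalization. In this range lay 13 replication genes, of which 1 was higher and 1 lower (0 and 3 after quantile normalization), and 12 G2/M genes, of which 4 were higher and 0 lower (0 and 2 after quantile normalization). Of the 3983 genes with a mean signal between 0 and 2, 21.4% were higher and 18.0% lower. There, 4 of 8 replication genes were lower and 0 higher, and 1 of 8 G2/M genes was higher and 0 lower. Of the 3777 genes with a mean signal between -2 and 0, 23.2% were higher and 32.8% lower (21.8% and 29.8% after quantile normalization). In this range lay 3 G2/M genes, of which 2, Foxm1 and Kif11, were lower and 0 higher under each scaling. Foxm1 and Kif11 thus lay in a range where more genes were lower than higher. Mcm6 and the G2/M genes that rose, other than Bub1, thus lay in a range where most genes rose under the same scaling, and neither they nor Bub1 passed as higher after quantile normalization.

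**Figure D4:**
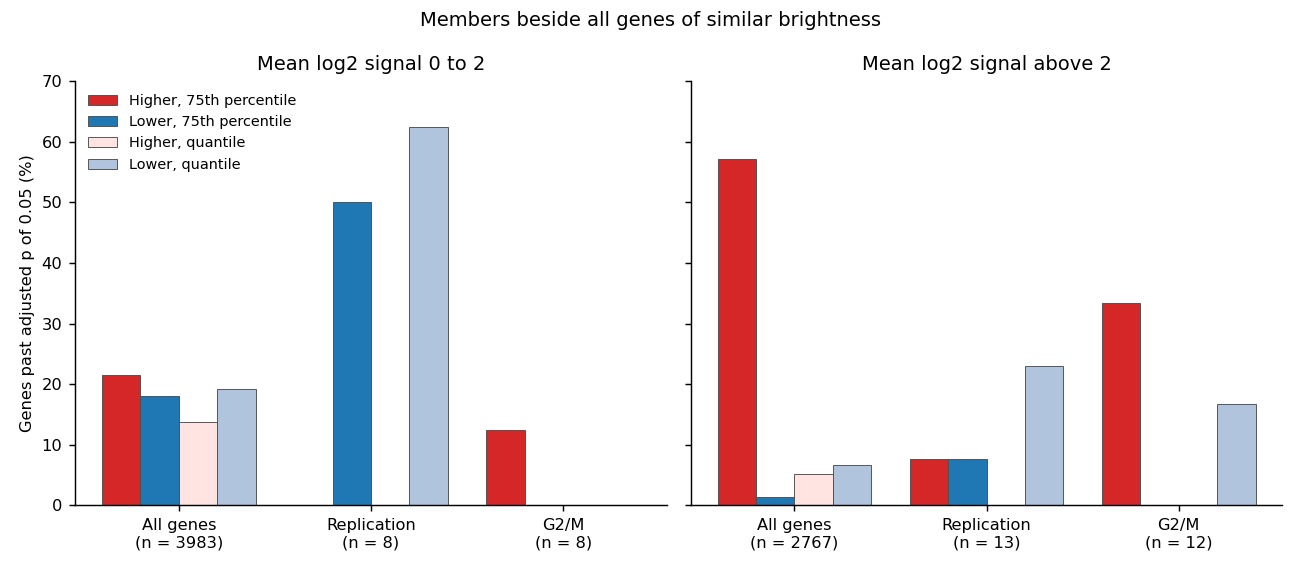
Share of genes past an adjusted p of 0.05, in percent, among genes with a mean signal (log2 intensity minus the 75th percentile) of 0 to 2 and above 2, for all genes and for both classes, with dark bars for the 75th percentile scaling and pale bars for quantile normalization. Above 2, 57.1% of all genes were higher under the first scaling and 5.2% after quantile normalization.

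The pattern was alike on both slides, which held arrays of both groups. The median change of the replication genes was -0.06 on slide 1 and -0.07 on slide 2, that of the G2/M genes 0.15 and 0.17, and that of all genes 0.24 and 0.19. Of the 46 members, 40 had the same sign on both. With the slide as a block, 1 replication gene was higher and 6 lower, and 6 G2/M genes were higher and 2 lower. Of all 17062 genes, 7227 were higher and 3694 lower in that fit. Per array, the median signal of the 20 replication genes measured on all arrays was 2.00, 2.00 and 2.06 in the controls and 1.78, 1.74 and 1.73 with overexpression, which do not overlap. For 19 G2/M genes it was 1.36, 1.36 and 1.64 against 1.51, 1.29 and 1.81, which overlap. For all 16296 such genes it was -0.95, -0.92 and -0.96 against -1.10, -1.07 and -1.09. These do not overlap either and are also lower with overexpression. After quantile normalization, medians were also taken relative to the median of all genes on the same array. The replication genes were then at 3.05, 3.10 and 3.15 against 2.79, 2.64 and 2.78, which do not overlap. The G2/M genes were at 2.37, 2.41 and 2.70 against 2.54, 2.25 and 2.86, which overlap. Whether the separation is particular to the replication genes was not tested. All of these are medians of signals, not the medians of changes given above, which were positive for all genes on both slides. On the arrays 26 members had 1 probe, and 20 had several that could be tested. The probes agreed in sign in 14 of those 20, and in 0 of them did probes pass in both directions in limma.

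The other genes of the same pathways came from lists of replication, mitosis and G1 control genes. Of 52 other replication genes tested, 14 were lower (26.9%) and 8 higher (15.4%), beside 19.6% and 36.9% of all genes. After quantile normalization 19 were lower and 3 higher, beside 20.9% and 21.7% of all genes. They had a median of -0.10, or -0.32 relative to all genes. E2f8, a late E2F repressor, had signals of 0.70, 0.43 and 0.62 against -0.73, -1.05 and -0.91, a change of -1.48 (adjusted p = 0.000204). Fen1, the nuclease that trims Okazaki fragments, was at -1.35, and Pola2, the second subunit of polymerase α, at -1.31, both also lower after quantile normalization (-1.43 and -1.34). The activator E2f1 fell by 0.76 (adjusted p = 0.0035), from 1.29, 1.12 and 0.93 to 0.22, 0.49 and 0.34, and Orc1, of the origin recognition complex, was at -0.53 (adjusted p = 0.0125). Cdc45, which completes the active helicase with Mcm2 to Mcm7 and GINS, was at -0.21 (adjusted p = 0.155) and lower after quantile normalization (-0.49, adjusted p = 0.0133). The largest rises under both scalings were those of Pole3 (0.72) and Pole4 (0.61), accessory subunits of polymerase ε, and Clspn (0.57), which relays replication stress to the checkpoint.

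Of 69 other mitosis genes tested, 14 were lower (20.3%, near the share of all genes) and 7 higher (10.1%), and 15 and 1 were so after quantile normalization, with a median of -0.05, or -0.27 relative to all genes. The kinesins Kif14 (-1.17) and Kif18b (-0.97) and the kinetochore gene Ska2 (-0.99) had the lowest values called under both scalings, and Cenpp (0.44) was the only one higher under both. Of 28 regulators of G1 and inhibitors, 8 were higher and 8 lower, 28.6% each, beside 36.9% and 19.6% of all genes. After quantile normalization 5 were higher (17.9%) and 8 lower (28.6%), beside 21.7% and 20.9% of all genes. Gadd45a, which is induced by stress and binds Cdk1 and Pcna, rose by 1.17 (adjusted p = 0.000324), and Gadd45b by 0.90. Cdkn1a, the inhibitor p21, was at 0.63, 0.27 and 0.30 in the controls and at 1.20, 1.51 and 1.07 with overexpression. The groups were separate, with a change of 0.86 (adjusted p = 0.00364; 0.79 and 0.0071 after quantile normalization). Cdkn1b, the inhibitor p27, was at 0.44 without passing (adjusted p = 0.17). On the lower side, the antiproliferative gene Btg2 was at -2.27, the Cdk1-inhibiting kinase Wee1 at -1.22 and the inhibitor Cdkn2b at -1.21, all also lower after quantile normalization. Ccnd1, the cyclin of early G1, fell by 0.54 (adjusted p = 0.0094; -0.76 and 0.0049 after quantile normalization). Inhibitors of the cycle were thus found on both sides.

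**Figure D5:**
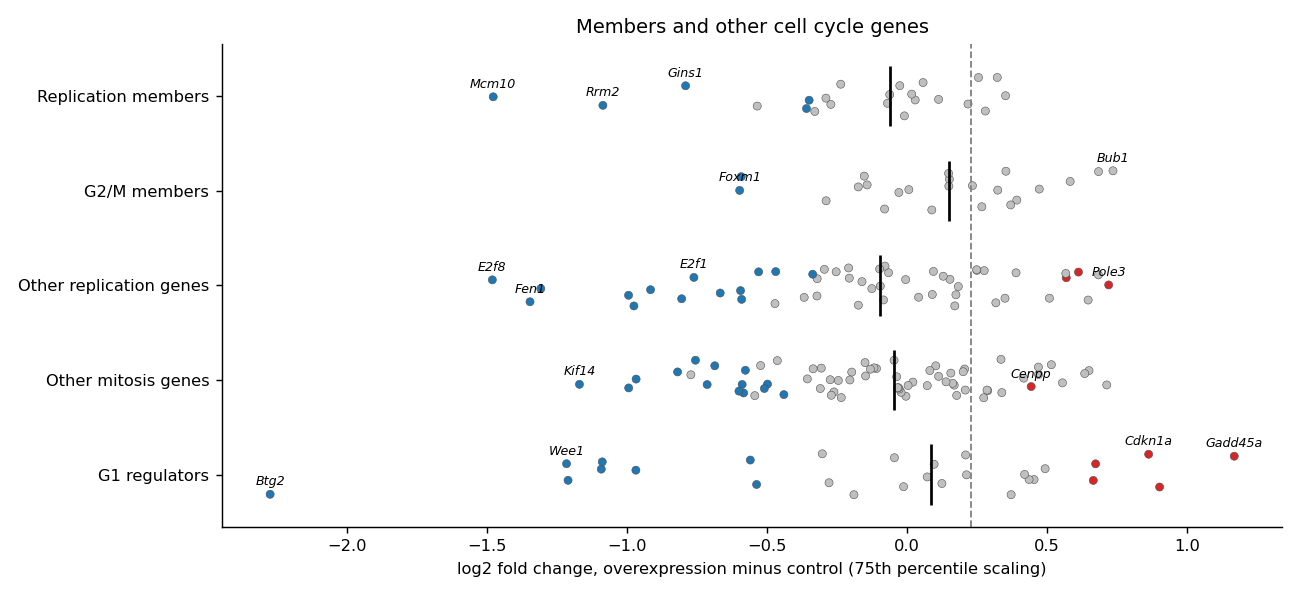
Log2 fold change under the 75th percentile scaling of the tested members and of the other replication, mitosis and G1 genes, 1 point a gene, with short vertical lines at list medians and a dashed line at the median of all genes, 0.23. Red and blue points passed an adjusted p of 0.05 under both scalings as higher or lower. In the member rows all such points are blue, 5 of 23 for replication and 2 of 23 for G2/M. Of all 17062 genes, 3692 were higher and 3185 lower under both scalings.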

How the data were processed

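RNA of LPS-treated BV2 cells was measured on 6 one-colour Agilent arrays, 3 per group, with groups, replicates and slides from the labels. The authors had scanned them with Agilent Feature Extraction, which gave an intensity per spot, background-subtracted and detrended within the array. The labels name the dye as Cy3 and the methods as Cy5, and the scanner files hold the green channel. The authors also deposited log2 values normalized in GeneSpring by a procedure not named, used as an alternative.

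From the deposited intensity, log2 was taken and each array's 75th percentile subtracted. Between 149 and 1590 outlier spots per array were dropped, and repeat spots of a probe were averaged. Of 56605 probes, 33767 (59.7%) matched 23462 genes by accession in RefSeq's table for GRCm38.p6, a newer assembly than the array's design. Testing required values on 2 or more arrays per group and, in 1 group or both, signals well above background throughout its 3 arrays; the brightest such probe stood for its gene. Groups were compared two-sided with lmFit and eBayes of limma 3.58.1 (R 4.3.3), with Benjamini-Hochberg adjustment over 17062 genes and a threshold of 0.05. With 3 arrays against 3, the smallest exact permutation p is 0.1. On simulated arrays of 16296 genes, 60% of genes changed by 1 (log2) and 93% of those changed by 2 were recovered, and 2.55% of calls were false. The simulation changed only a small part of the genes, drew independent noise and did not repeat the scaling. It therefore does not measure errors that come from the scaling. Precision is limited by the small number of arrays.

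The members, lists and tests were chosen with earlier results of these data known. Array values are given for members called under both scalings with groups that do not overlap, for Mcm2, Pcna, Rrm2, Ccne1, Mki67, Top2a, Cdk1, Ccnb1 and Foxm1, and, chosen after their values were seen, for the other members called under 1 scaling as higher. From the other lists, the 3 largest changes called under both scalings in each direction are named, with Cdkn1a, Cdkn1b, E2f1, Cdc45, Orc1 and Ccnd1. Promoters came from RefSeq windows; tables and plots were made with Python 3.11.15, pandas 2.3.3 and matplotlib 3.10.9. Alternatives were other scalings, normexp with an offset of 50, filters, the mean of probes, slide or replicate blocks, other variance models, the authors' values, a fold threshold and each array left out.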

Additional observations from a re-analysis of the deposited data

How the results depend on the processing

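Mcm10, Rrm2 and Gins1 were lower past the threshold in all 20 alternative fits, Foxm1 in 19, Kif11 in 15 and Rfc4 and Tk1 in 14 each, and none of the 7 was called higher in any. Relative to the median of all genes, the replication genes' median lay between -0.41 and -0.25 in every alternative and that of the G2/M genes between -0.23 and -0.046, the lowest after quantile normalization of all spots (-0.23). The number of replication genes called lower, 5 in the values reported, was 9 after quantile normalization, 8 with arrays scaled to their median, 10 with normexp followed by quantile normalization, 3 with no filter on dim probes, 13 with the authors' log2 values or with quantile normalization of all spots, and 2 where a change of at least 1 in size was also required. The number called higher, 1 as reported, was 0 under each of those 7 settings and with the replicate block, and 2 with a variance trend or array weights. For the G2/M genes the number called higher, 5 as reported, was 0, 2, 1, 2, 0, 0 and 0 under those settings in the same order and 3 with normexp and the 75th percentile. The number called lower, 2 as reported, was 4 after quantile normalization, 5 with normexp followed by quantile normalization, 1 with no filter, 6 with the authors' log2 values or quantile normalization of all spots, and 0 with the size requirement. Counts over all genes varied too. Of 17062, 6290 were higher and 3343 lower as reported, 3700 and 3558 after quantile normalization, and 4913 and 3825 with median scaling. They were 7372 and 2825 with normexp and the 75th percentile, and 2921 and 3465 with normexp and quantile normalization. With no filter they were 5741 and 2909 of 23333, and with the authors' values 3960 and 3824 of 17076. With the size requirement they were 1146 and 1284. Of 17062 genes, 3943 were higher and 3809 lower with quantile normalization of all spots. They were 6624 and 3447 with a variance trend, and 7249 and 3996 with array weights. With each array left out in turn, 3 to 5 replication genes were called lower and 0 higher, and 2 to 5 G2/M genes were called higher and 0 to 2 lower. In those fits 4708 to 6759 of all genes were higher and 2690 to 3233 lower, of 16986 to 17636 tested. Keeping outlier spots and quantile normalization of all spots were chosen after seeing the data. The cause of these differences was not tested, except that leaving out an array leaves fewer samples.

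The replicate numbers gave no clear pairing of the samples. Same-numbered arrays deviated together with r of -0.16, 0.07 and 0.60 across genes, which are not independent replicates. For arrays with different numbers r ran from -0.51 to 0.50. Deviations were taken from each group's mean, so these r values depend on one another. The arrays numbered 3 were also the only ones on slide 2, so number and slide cannot be told apart there. With the replicate block, 0 replication genes were called higher and 6 lower, and 4 G2/M genes higher and 2 lower. Of all 17062 genes, 6989 were higher and 3572 lower in that fit.

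Of 905 values of single members under an alternative, 735 kept their side of the median of all genes and of the threshold, 60 lost a call, 59 gained one, and 51 changed side relative to the median of all genes. Relative values that changed side were, with quantile normalization, Mcm4 -0.15, Mcm6 -0.26, Rrm1 -0.21, Top2a -0.22, Kif20a -0.22 and Tpx2 -0.15. They were Mcm4 -0.063, Mcm6 -0.20, Rrm1 -0.16, Top2a -0.25, Kif20a -0.13 and Tpx2 -0.17 when normexp came before it, Mcm4 -0.17, Mcm6 -0.29, Rrm1 -0.24, Top2a -0.23, Kif20a -0.23 and Tpx2 -0.16 with the authors' log2 values, and Mcm4 -0.16, Mcm6 -0.29, Rrm1 -0.23, Top2a -0.24, Kif20a -0.23 and Tpx2 -0.16 with quantile normalization of all spots. With no filter on dim probes they were Mcm4 -0.066, Mcm6 -0.023, Rrm1 -0.090, Top2a -0.078, Kif20a -0.11 and Tpx2 -0.021, and with normexp and the 75th percentile Rrm1 -0.030, Top2a -0.069, Kif20a -0.014 and Tpx2 -0.013. Averaging a gene's probes turned Pcna 0.035 and Birc5 0.084, median scaling Pcna 0.010 and array weights Kif20a -0.023. With outlier spots kept they were Rrm1 -0.023 and Aurkb 0.048, where another probe of Aurkb was the brightest. Across the fits without 1 array, relative values that changed side ranged from -0.0038 to 0.099 for Mcm4, -0.16 to 0.30 for Pola1, -0.070 to 0.14 for Top2a, -0.29 to 0.41 for Cenpe, -0.18 to 0.56 for Cenpf and -0.022 to 0.025 for Kif20a. The signal over background limits dim members such as Ccne2.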
